A study of Mus musculus with 12 samples.

Results

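The genes described here are 38 genes of glycolysis, glucose transport and the hypoxia response, chosen by name as enzymes, transporters and known targets of hypoxia-inducible factor (HIF). All 38 were among the 31641 gene symbols of the deposited count table. The table covers 4 mouse embryonic stem cell (mESC) lines profiled by RNA-seq. Mut-1 and Mut-2 carry the genotype Tin2 S341X, where Tin2 is the protein made from Tinf2, a part of the shelterin complex that protects telomeres. WT-1 and WT-2 are wild type. All 4 lines have the C57BL/6 background, derive from blastocysts, and were kept in serum medium with leukaemia inhibitory factor (LIF) on mouse embryonic fibroblast (MEF) feeder cells. Total RNA was taken from cells growing on those feeders, so feeder RNA can be present in every library. Each line has 3 libraries, which the design text calls technical replicates, for 12 libraries in all. Whether each line is 1 clone is not given in the sources used here.

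Glycolysis splits glucose into pyruvate in a preparatory set of steps that uses ATP and a payoff set that makes ATP, and lactate dehydrogenase then turns pyruvate into lactate. When oxygen is short, the prolyl hydroxylases that mark HIF alpha subunits for destruction lose activity. The stabilised HIF then switches on glucose transporters, glycolytic enzymes, a brake on pyruvate dehydrogenase, mitophagy receptors and secreted vascular factors. Pluripotent stem cells are known for a high rate of glycolysis even when oxygen is present.

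Library totals ran from 14766477 to 17891894 counts, and the 38 genes took between 1.48% and 2.65% of them. The lowest count of any of the 38 in a library was 15, for Ankrd37. Tinf2 measured 29.8, 25.2 and 20.1 CPM in the libraries of Mut-1 and 30.1, 27.5 and 19.7 CPM in those of Mut-2, against 69.2, 64.9 and 57.7 CPM in those of WT-1 and 64.0, 58.8 and 60.6 CPM in those of WT-2, where CPM are counts scaled to a common library total. All mutant libraries were thus below all wild-type libraries for the mutated gene, with a log2 fold change of -1.298 (SE 0.11, edgeR adjusted p = 0.0652 over 2 lines against 2). None of 15 pluripotency markers was at 0, and their summed level was 6668 to 8693 CPM in mutant libraries and 7295 to 8548 CPM in wild-type libraries. None of 30 feeder fibroblast markers was at 0 either, and they summed to 5571 to 12069.9 CPM in mutant libraries and 5014 to 6946 CPM in wild-type libraries. All 30 had a log2 fold change above 0 in mutant over wild-type lines (median 0.58). Their share of counts was 1.27% in Mut-1 replicate 1, 1.09% in Mut-2 replicate 1 and 1.19% in Mut-2 replicate 2, and 0.501% to 0.715% in the other 9 libraries. Leaving out these 3 feeder-rich libraries keeps Mut-1 replicates 2 and 3 but only replicate 3 of Mut-2, which was low for many of the 38 genes. WT-2 replicate 1 stood apart for the 38 genes, so genotype values that changed sign, or moved by more than 1.5 times, without it are given both ways, singly or as a range.

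Levels can be compared between genes only per length, and are given here as CPM per kilobase of annotated exon, mean ± SD over the 2 lines of a genotype. Exon length is the union of all annotated exons of a gene, so these levels and their order depend on the annotation. The most abundant of the 38 was Pkm, which makes pyruvate, at 596 ± 43.5 in mutant lines and 672 ± 11.2 in wild-type lines. Aldoa, the main aldolase, stood at 555 ± 9.54 in mutant lines and 608 ± 36.0 in wild-type lines. Next came Eno1, which makes phosphoenolpyruvate, at 484 ± 56.3 in mutant lines and 598 ± 28.7 in wild-type lines. Pgk1, the first ATP-forming enzyme, was at 499.5 ± 4.40 in mutant lines and 560.1 ± 70.1 in wild-type lines. Eno1 and Pgk1 did not differ beyond the spread between lines, and their order was not the same in both genotypes. Pkm and Aldoa in mutant lines, and Aldoa and Eno1 in wild-type lines, did not differ beyond that spread either. The lowest level belonged to Car9, an extracellular carbonic anhydrase, at 1.03 ± 0.0230 in mutant lines and 1.05 ± 0.216 in wild-type lines.

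Within most gene families 1 form had the higher level per kilobase. Among glucose importers, Slc2a3 (GLUT3) was at 329 ± 36.1 in mutant lines and 299 ± 61.0 in wild-type lines, and Slc2a1 (GLUT1) was at 102 ± 13.6 in mutant lines and 130.3 ± 17.7 in wild-type lines. Of the hexokinases, Hk2 was at 42.8 ± 2.17 in mutant lines and 58.2 ± 7.34 in wild-type lines, and Hk1 at 17.3 ± 1.10 in mutant lines and 18.4 ± 0.626 in wild-type lines. The 3 phosphofructokinase genes lay closer together, with means over the 4 lines of 46.8 CPM per kilobase for Pfkl, 36.0 for Pfkp and 25.1 for Pfkm. Their order depended on exon length, which was 6675 bases for Pfkl, 13401 for Pfkp and 3340 for Pfkm. In CPM not divided by length, Pfkp was the highest, averaging 481 over the libraries, against 312 for Pfkl and 83.9 for Pfkm. Aldoc, the aldolase best known from brain, was far below Aldoa, at 9.15 ± 0.798 in mutant lines and 15.1 ± 1.38 in wild-type lines. Eno2, the neuronal enolase, was likewise far below Eno1, at 10.6 ± 1.47 in mutant lines and 7.75 ± 2.53 in wild-type lines.

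The spread between libraries of the same line was wide for these genes. The median log2 range across the 3 libraries of a line was 0.45 in Mut-1, 0.70 in Mut-2, 0.50 in WT-1 and 0.92 in WT-2. Over 11412 genes averaging 5 CPM or more, it was 0.34 in Mut-1, 0.38 in Mut-2, 0.30 in WT-1 and 0.36 in WT-2. The median of the 38 was thus above that of all these genes in each line, and highest in WT-2. Their median absolute difference between genotypes was 0.18 on the log2 scale, while the median range within the most variable line of each gene was 1.07. Pdk1 was the only one of the 38 (2.63%) whose genotype difference exceeded the range within its most variable line, against 2.83% of the 11412 genes.

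WT-2 replicate 1 was the highest of the 12 libraries for 28 of the 38 genes (all genes, 15.9%), and the highest of its own line for 35 of them (92.1%, against 36.5%). WT-2 replicate 3 was the lowest of that line for 26 (68.4%, against 33.5%). In Mut-2, replicate 1 was highest for 27 (71.1%, against 35.7%) and replicate 3 was lowest for 27 (71.1%, against 34.5%). WT-1 replicate 3 was the lowest of its line for 28 (73.7%, against 44.8%). Mut-1 was more even, with its 3 libraries highest for 16, 11 and 11 of the genes. WT-1 replicates 1 and 2 were close to each other, with a chi-square per degree of freedom of 1.62, against 10.9 to 38.4 for the other pairs within a line. They were kept as separate libraries because they still differed by more than counting noise.

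**Figure D1:**
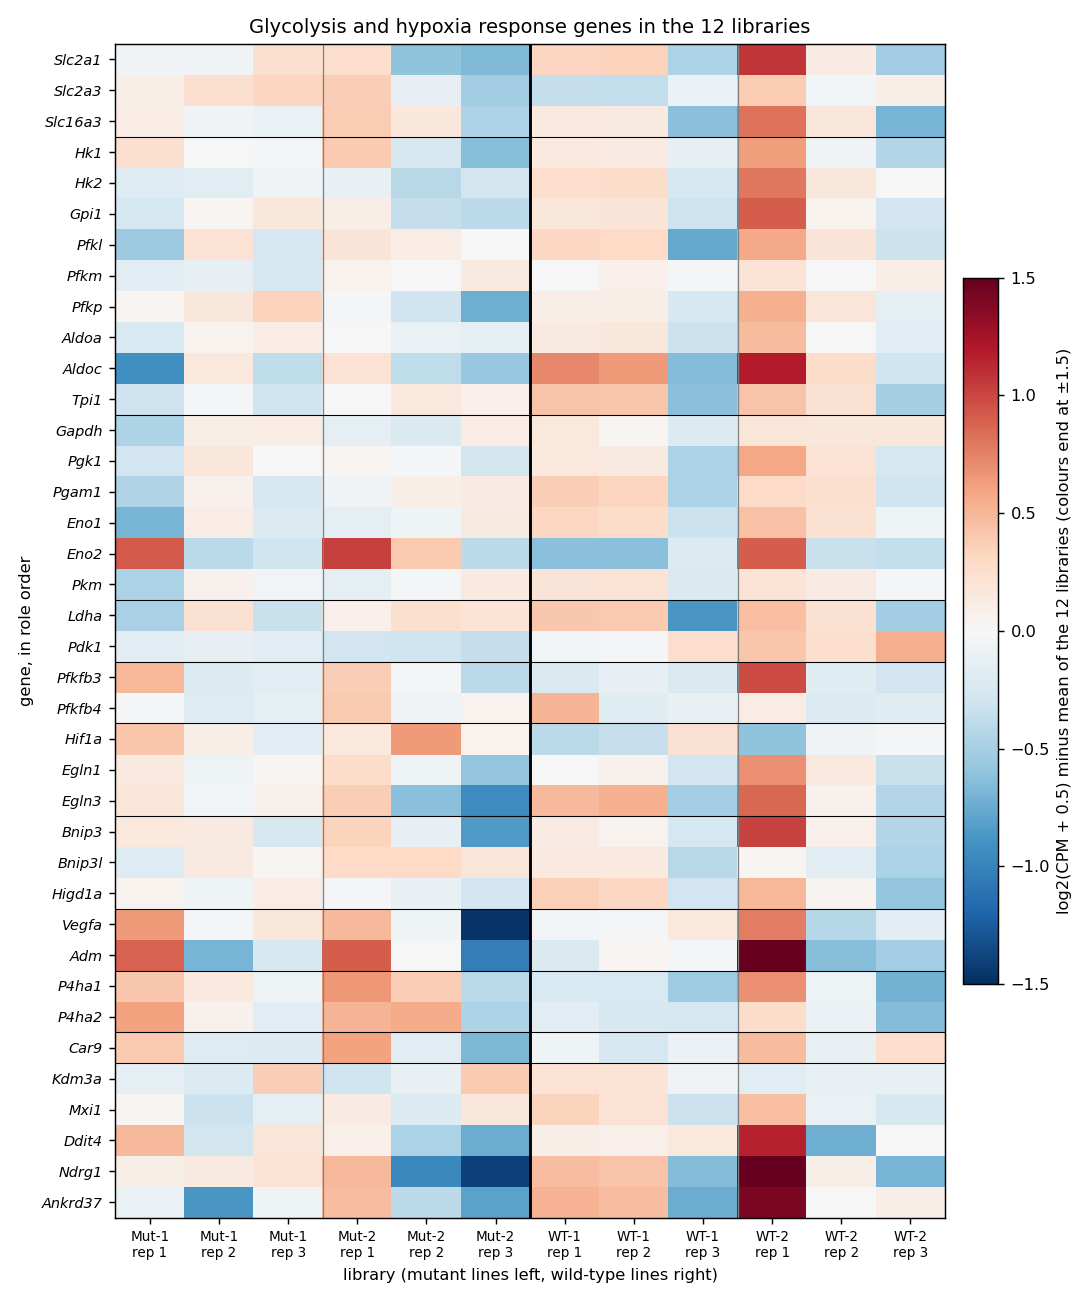
Level of each of the 38 genes (down the page, in role order) in the 12 libraries (across, mutant lines left of wild-type lines), as log2(CPM + 0.5) minus the gene's mean over the 12 libraries, with colours ending at 1.5 either side of 0. WT-2 replicate 1 is the highest of the 12 libraries for 28 genes, and Mut-2 replicate 3 the lowest for 15.

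The ratio of WT-2 replicate 1 to WT-2 replicate 3 was 5.79 for Ndrg1, a stress-responsive growth suppressor, and 4.25 for Adm, which encodes the vasodilator adrenomedullin. It was 3.02 for Slc2a1, 2.86 for Slc16a3, the lactate exporter MCT4, 2.83 for Aldoc and 2.77 for Bnip3, a mitophagy receptor. Pdk1 and Hif1a ran the other way, with ratios of 0.919 and 0.669, as did Kdm3a, a histone demethylase, at 0.963. In WT-1, replicate 3 divided by the mean of replicates 1 and 2 gave 0.342 for Ankrd37, 0.394 for Aldoc and 0.413 for Ldha. Pdk1 and Hif1a again ran the other way, at 1.24 and 1.52. So did Eno2, at 1.35, and Slc2a3, Vegfa, Car9, Ddit4 and Adm. In Mut-2, replicate 1 over replicate 3 gave 4.03 for Adm, 3.94 for Vegfa and 3.80 for Ndrg1. Pdk1 and Hif1a did not run the other way in that line, at 1.05 and 1.08. Kdm3a did, at 0.617, as did Pfkm, Tpi1, Gapdh, Pgam1, Eno1, Pkm, Ldha and Mxi1.

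**Figure D2:**
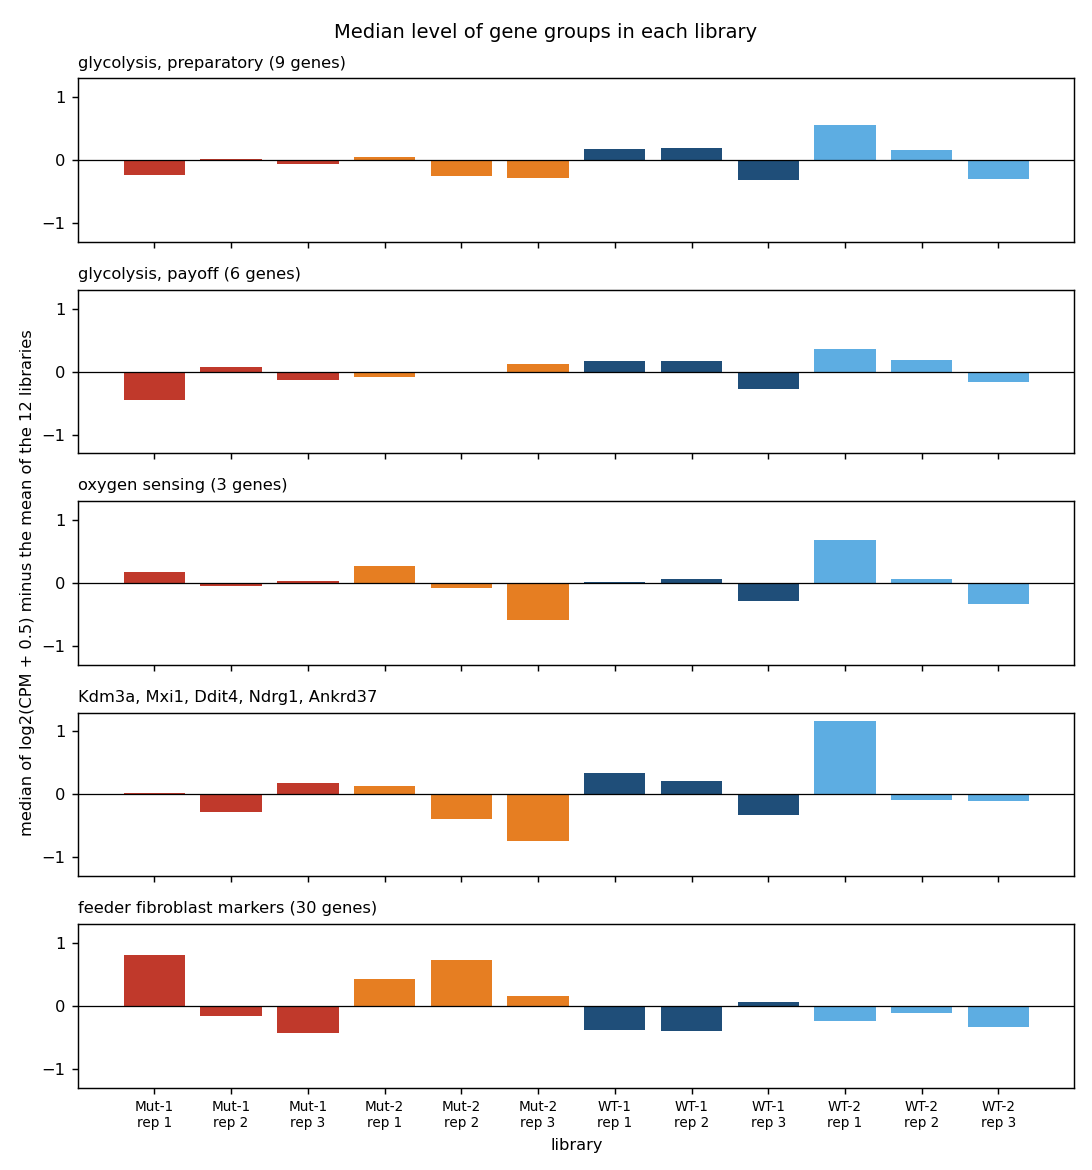
Median over each gene group of log2(CPM + 0.5) minus the gene's mean over the 12 libraries, as bars per library, mutant lines left of wild-type lines. WT-2 replicate 1 is the highest bar for the preparatory glycolytic enzymes at 0.57, for oxygen sensing at 0.69 and for the group of Kdm3a, Mxi1, Ddit4, Ndrg1 and Ankrd37 at 1.16, while the feeder markers are highest in Mut-1 replicate 1 at 0.80 and Mut-2 replicate 2 at 0.72.

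The first comparison asked how the mutant lines differed from the wild-type lines. Counts were summed per line, since the series' design describes the 3 libraries as technical replicates, although within each line they differed by more than counting noise. The 2 mutant line totals were set against the 2 wild-type totals in edgeR (quasi-likelihood test, Benjamini-Hochberg adjustment over 18749 genes). None of the 38 genes passed an adjusted p of 0.05, and neither did any other gene (0.0% called higher and 0.0% called lower). The smallest adjusted p of the 38 was 0.163, for Aldoc. At an unadjusted p under 0.05, 9 of the 38 were lower in the mutant lines (23.7%, against 3.88% of all genes) and 2 were higher (5.26%, against 9.17%). Without WT-2 replicate 1, 3 were lower at that p, Hk2, Aldoc and Pdk1 (7.89%, against 3.78% of all genes), and 6 higher, Eno2, P4ha1, P4ha2, Hif1a, Adm and Pfkfb3 (15.8%, against 10.1%). Without the 3 feeder-rich libraries, 6 were lower, Hk2, Aldoc, Pdk1, Adm, Ddit4 and Ankrd37 (15.8%, against 2.22%), and 0 higher (all genes, 4.31%). The counts were 3 lower (7.89%, against 3.79% of all genes) and 4 higher (10.5%, against 9.19%) without WT-1 replicate 1. They were 4 lower (10.5%, against 3.70%) and 3 higher (7.89%, against 9.18%) without WT-1 replicate 2. The log2 fold change was below 0 for 29 of the 38 (76.3%, against 50.2%), with a median of -0.14 against -0.0016 over all genes. Both mutant lines were below both wild-type lines for 17 genes (44.7%, against 21.8%). They were above both for 4 (10.5%, against 23.8%), namely Eno2, Hif1a, P4ha1 and P4ha2. With WT-2 replicate 1 left out, the line totals were below for 7 (18.4%, against 20.7% of all genes) and above for 8 (21.1%, against 25.4%). In bulk samples, fewer cells of a type and less RNA per cell cannot be told apart.

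Without WT-2 replicate 1, the median over the 38 genes was -0.018, against 0.020 over all genes, and 20 of the 38 were below 0, against 46.9% of all genes. Without the 3 feeder-rich libraries, the median was -0.24 and 34 were below 0, against 49.3%. With DESeq2 on the same line totals, Aldoc alone of the 38 was called, lower (adjusted p = 0.00106, with 0.347% of all genes called lower and 1.57% higher). A limma-voom fit of all 12 libraries, with a random effect for line, called Pdk1 alone, lower (adjusted p = 0.0323, with 0.267% called lower and 1.17% higher). The correlation within a line was estimated at -0.002 in that fit, so its p-values treat the libraries of a line almost as independent. With the feeder share added to that fit, none of the 38 was called (0.0127% lower and 0.223% higher). None was called in it without the 3 feeder-rich libraries either (0.00618% lower and 0.0865% higher). An exact permutation test of 2 lines against 2 cannot give a p below 0.333.

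**Figure D3:**
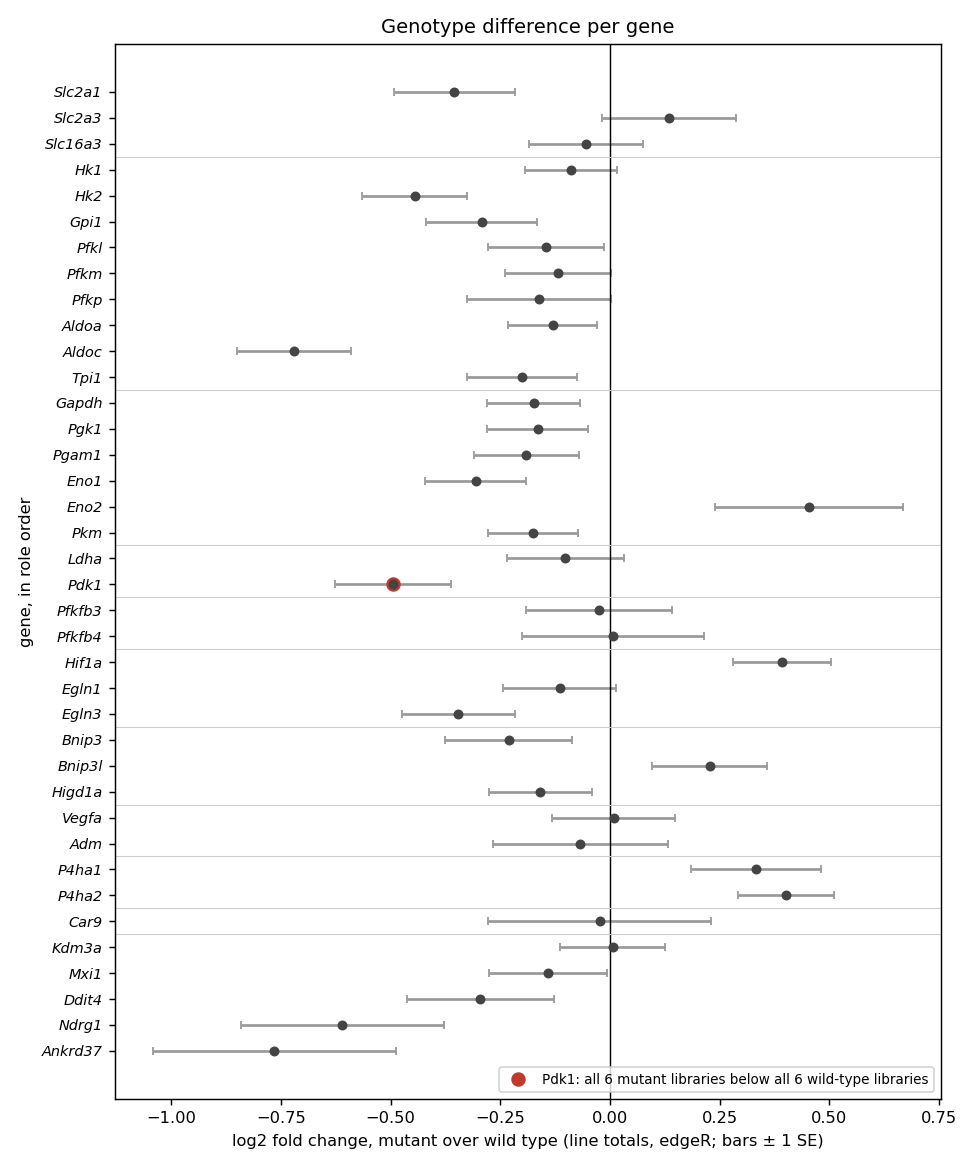
Log2 fold change, mutant over wild type, of each of the 38 genes in role order, from edgeR on line totals (2 lines of each genotype), with bars of ± 1 SE. Of the 38 points 29 lie left of 0, with Ankrd37 at -0.77 and Aldoc at -0.72 farthest left and Eno2 at 0.45 farthest right, and none passed the adjusted threshold.

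Among the transporters, Slc2a1, the basal glucose importer GLUT1 (GRCm38 chr4:119108711-119137983, plus strand), measured 367, 366 and 449.7 CPM in the libraries of Mut-1 and 457, 251 and 239.8 CPM in those of Mut-2, against 478, 482 and 277 CPM in those of WT-1 and 803, 414 and 266 CPM in those of WT-2. The highest library was WT-2 replicate 1, and the genotypes overlapped. Its log2 fold change was -0.35 (SE 0.14, edgeR adjusted p = 0.335), and -0.074 without WT-2 replicate 1. For Slc2a3 the value was 0.14 (0.22 without that library) and for Slc16a3 -0.055 (0.17 without it), and neither passed.

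All 9 preparatory enzymes had a log2 fold change below 0 in the mutant lines (median -0.16), and none passed the adjusted threshold. When WT-2 replicate 1 was left out, 8 of the 9 were below 0 (median -0.063). Hk2, which traps glucose in the cell by phosphorylating it (GRCm38 chr6:82725025-82774454, minus strand), measured 257, 262 and 282 CPM in the libraries of Mut-1 and 272, 219.7 and 242 CPM in those of Mut-2, against 349, 354 and 243 CPM in those of WT-1 and 506, 329 and 293 CPM in those of WT-2. WT-1 replicate 3 was the only wild-type library within the range of the mutant libraries. The difference was -0.44 (SE 0.12, edgeR adjusted p = 0.232) on the log2 scale, and -0.29 without WT-2 replicate 1.

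Aldoc, which splits fructose bisphosphate (GRCm38 chr11:78322968-78327781, plus strand), measured 18.7, 40.1 and 27.5 CPM in the libraries of Mut-1 and 41.7, 27.4 and 24.0 CPM in those of Mut-2, against 59.3, 56.2 and 22.7 CPM in those of WT-1 and 82.6, 43.5 and 29.2 CPM in those of WT-2. Mut-1 replicate 1 was the lowest library, and the other 5 mutant libraries lay within the wild-type range, whose low end was replicate 3 of each wild-type line. Mutant over wild type, its log2 fold change was -0.72 (SE 0.13, edgeR adjusted p = 0.163), and -0.47 without WT-2 replicate 1. Gpi1, the glucose phosphate isomerase, was at -0.29, and at -0.063 without that library. The others, the hexokinase Hk1, the phosphofructokinases Pfkl, Pfkm and Pfkp, the aldolase Aldoa and the triose phosphate isomerase Tpi1, ranged from -0.20 for Tpi1 to -0.089 for Hk1, and without that library from -0.11 for Tpi1 to 0.088 for Hk1.

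Of the 6 payoff enzymes, 5 were below 0 and Eno2 was above it. Eno1 (GRCm38 chr4:150236721-150248879, plus strand) measured 1761, 3084 and 2472 CPM in the libraries of Mut-1 and 2599, 2739 and 3138 CPM in those of Mut-2, against 3546, 3469.5 and 2279 CPM in those of WT-1 and 3861, 3337 and 2723 CPM in those of WT-2. The lowest library was Mut-1 replicate 1 and the highest was WT-2 replicate 1, with overlap between the genotypes. On the log2 scale the difference was -0.31 (SE 0.12, edgeR adjusted p = 0.327), and -0.12 on line totals without the 3 feeder-rich libraries. Gapdh, Pgk1, the phosphoglycerate mutase Pgam1 and Pkm ranged from -0.19 for Pgam1 to -0.17 for Pgk1, and without WT-2 replicate 1 from -0.16 for Gapdh to -0.044 for Pgk1. For Eno2 the log2 fold change was 0.45 (SE 0.21, edgeR adjusted p = 0.418). It had 73.8 CPM in Mut-1 replicate 1 and 79.4 CPM in Mut-2 replicate 1, its top mutant libraries, and 73.2 CPM in WT-2 replicate 1, the top wild-type library. Without the 3 feeder-rich libraries its log2 fold change was -0.29, and without WT-2 replicate 1 it was 0.78.

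Pdk1, which phosphorylates pyruvate dehydrogenase and so keeps pyruvate out of the citric acid cycle (GRCm38 chr2:71873224-71903858, plus strand), measured 109.8, 114 and 109.6 CPM in the libraries of Mut-1 and 101, 101 and 96.3 CPM in those of Mut-2, against 120.3, 121 and 149 CPM in those of WT-1 and 166, 148 and 181 CPM in those of WT-2. Every mutant library lay below every wild-type library, which held for no other of the 38 genes. Among all genes, 0.732% had the 6 mutant libraries below the 6 wild-type libraries and 1.41% had them above. The genotype log2 fold change of Pdk1 was -0.49 (SE 0.13, edgeR adjusted p = 0.229). It was -0.48 without WT-2 replicate 1, -0.50 on line totals without the 3 feeder-rich libraries, and -0.46 in limma with the feeder share in the model (adjusted p = 0.196). Its log2 range within a line was 0.053 in Mut-1, 0.074 in Mut-2, 0.31 in WT-1 and 0.29 in WT-2.

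Ldha, which makes lactate from pyruvate (GRCm38 chr7:46841475-46855627, plus strand), measured 1064, 1735 and 1178 CPM in the libraries of Mut-1 and 1566, 1751 and 1707 CPM in those of Mut-2, against 1963, 1949 and 808 CPM in those of WT-1 and 2022, 1744 and 1030.4 CPM in those of WT-2. Replicate 3 was the lowest library of WT-1 and of WT-2, and the genotypes overlapped. The genotype difference was -0.10 (SE 0.13, edgeR adjusted p = 0.791) on the log2 scale, and 0.0016 without WT-2 replicate 1. Pfkfb3 and Pfkfb4, which set the level of an allosteric activator of phosphofructokinase, were at -0.024 and 0.0063, and without that library at 0.27 and 0.063. On line totals without the 3 feeder-rich libraries they were at -0.37 and -0.073.

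In the oxygen-sensing group, Hif1a, the regulated HIF subunit (GRCm38 chr12:73901375-73947530, plus strand), measured 227, 181 and 152 CPM in the libraries of Mut-1 and 190.5, 266 and 177 CPM in those of Mut-2, against 129, 134 and 199.8 CPM in those of WT-1 and 112, 164 and 167 CPM in those of WT-2. The highest value was that of Mut-2 replicate 2 and the lowest that of WT-2 replicate 1, with overlap between the genotypes. Its log2 fold change was 0.39 (SE 0.11, edgeR adjusted p = 0.244), and 0.18 without the 3 feeder-rich libraries, which were the 3 highest mutant libraries for this gene. HIF alpha subunits are controlled mainly through protein stability, which RNA counts do not measure.

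Egln3, a prolyl hydroxylase that is itself a HIF target (GRCm38 chr12:54178981-54203860, minus strand), measured 64.6, 55.4 and 59.5 CPM in the libraries of Mut-1 and 73.8, 36.8 and 29.3 CPM in those of Mut-2, against 80.1, 82.6 and 39.8 CPM in those of WT-1 and 104, 59.6 and 41.9 CPM in those of WT-2. Mut-1 was the most even line, WT-2 replicate 1 was the highest library, and the genotypes overlapped. The difference was -0.35 (SE 0.13, edgeR adjusted p = 0.324) on the log2 scale, -0.13 without WT-2 replicate 1 and -0.64 without the 3 feeder-rich libraries. Egln1, the main HIF prolyl hydroxylase, was at -0.11, and at 0.052 without WT-2 replicate 1.

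The mitochondrial genes did not pass either. Bnip3, a mitophagy receptor, was at -0.23, Higd1a, a mitochondrial inner membrane protein, was at -0.16, and Bnip3l, the paralogue of Bnip3, was at 0.23. The values without WT-2 replicate 1 were 0.043 for Bnip3, -0.018 for Higd1a and 0.29 for Bnip3l. Bnip3l lies on chromosome 14, where 389 genes had a median log2 fold change of 0.36, against -0.042 for 10319 genes on the other autosomes. The part of that chromosome in the value of Bnip3l was not tested.

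Among secreted signals, Vegfa, the vascular growth factor (GRCm38 chr17:46016993-46032369, minus strand), measured 189.7, 119 and 136 CPM in the libraries of Mut-1 and 171, 116 and 43.3 CPM in those of Mut-2, against 118, 119 and 136 CPM in those of WT-1 and 207, 90.2 and 108 CPM in those of WT-2. Mut-2 replicate 3 was the lowest library and WT-2 replicate 1 the highest. Mutant over wild type, its log2 fold change was 0.0087 (SE 0.14, edgeR adjusted p = 0.985), and that of Adm was -0.068. Leaving out WT-2 replicate 1 gave 0.24 for Vegfa and 0.50 for Adm, neither past the adjusted threshold. Line totals without the 3 feeder-rich libraries gave -0.59 for Vegfa and -0.97 for Adm. Car9, which acidifies the outside of hypoxic cells, was at -0.023, at 0.087 without WT-2 replicate 1 and at -0.56 without the feeder-rich libraries.

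The collagen prolyl hydroxylase subunits P4ha1 and P4ha2, which modify collagen as it is made, were above 0 in the mutant lines. P4ha2 (GRCm38 chr11:54100095-54131665, plus strand) measured 101, 69.3 and 59.5 CPM in the libraries of Mut-1 and 94.3, 97.7 and 48.0 CPM in those of Mut-2, against 59.5, 56.2 and 55.1 CPM in those of WT-1 and 80.6, 62.5 and 42.1 CPM in those of WT-2. The 3 highest libraries were Mut-1 replicate 1 and Mut-2 replicates 1 and 2, the same 3 that had the highest feeder share. On the log2 scale the difference was 0.40 (SE 0.11, edgeR adjusted p = 0.236) for P4ha2 and 0.33 (SE 0.15, edgeR adjusted p = 0.395) for P4ha1. On line totals without those 3 libraries the values were -0.080 for P4ha2 and -0.062 for P4ha1, and without WT-2 replicate 1 they were 0.53 and 0.57.

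The last group holds a histone demethylase (Kdm3a), a Myc antagonist (Mxi1), an inhibitor of mTOR signalling (Ddit4), the growth suppressor Ndrg1 and the ankyrin repeat protein Ankrd37. Ankrd37 (GRCm38 chr8:45996902-46005707, minus strand), which held the lowest single library count of the 38, measured 2.12, 1.03 and 2.17 CPM in the libraries of Mut-1 and 3.38, 1.63 and 1.11 CPM in those of Mut-2, against 3.51, 3.37 and 1.18 CPM in those of WT-1 and 6.94, 2.32 and 2.51 CPM in those of WT-2. The top value was again that of WT-2 replicate 1, and the genotypes overlapped. Its log2 fold change was -0.77 (SE 0.28, edgeR adjusted p = 0.312), -0.38 without WT-2 replicate 1 and -1.23 without the 3 feeder-rich libraries. By the annotation, 22.7% of its exon length overlaps Lrp2bp on the opposite strand, and with the strand setting not given, reads of the overlap cannot be told apart.

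Ndrg1 (GRCm38 chr15:66929318-66969640, minus strand), chosen for this account after its values were seen, measured 32.3, 33.5 and 35.2 CPM in the libraries of Mut-1 and 42.6, 15.3 and 11.2 CPM in those of Mut-2, against 42.1, 41.1 and 19.2 CPM in those of WT-1 and 107, 32.2 and 18.5 CPM in those of WT-2. WT-2 replicate 1 stood far above all other libraries. The difference was -0.61 (SE 0.23, edgeR adjusted p = 0.328) on the log2 scale, and -0.051 without that library. Ddit4 was at -0.30, Mxi1 at -0.14 and Kdm3a at 0.0065, and without that library they were at 0.052, -0.022 and 0.0055.

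**Figure D4:**
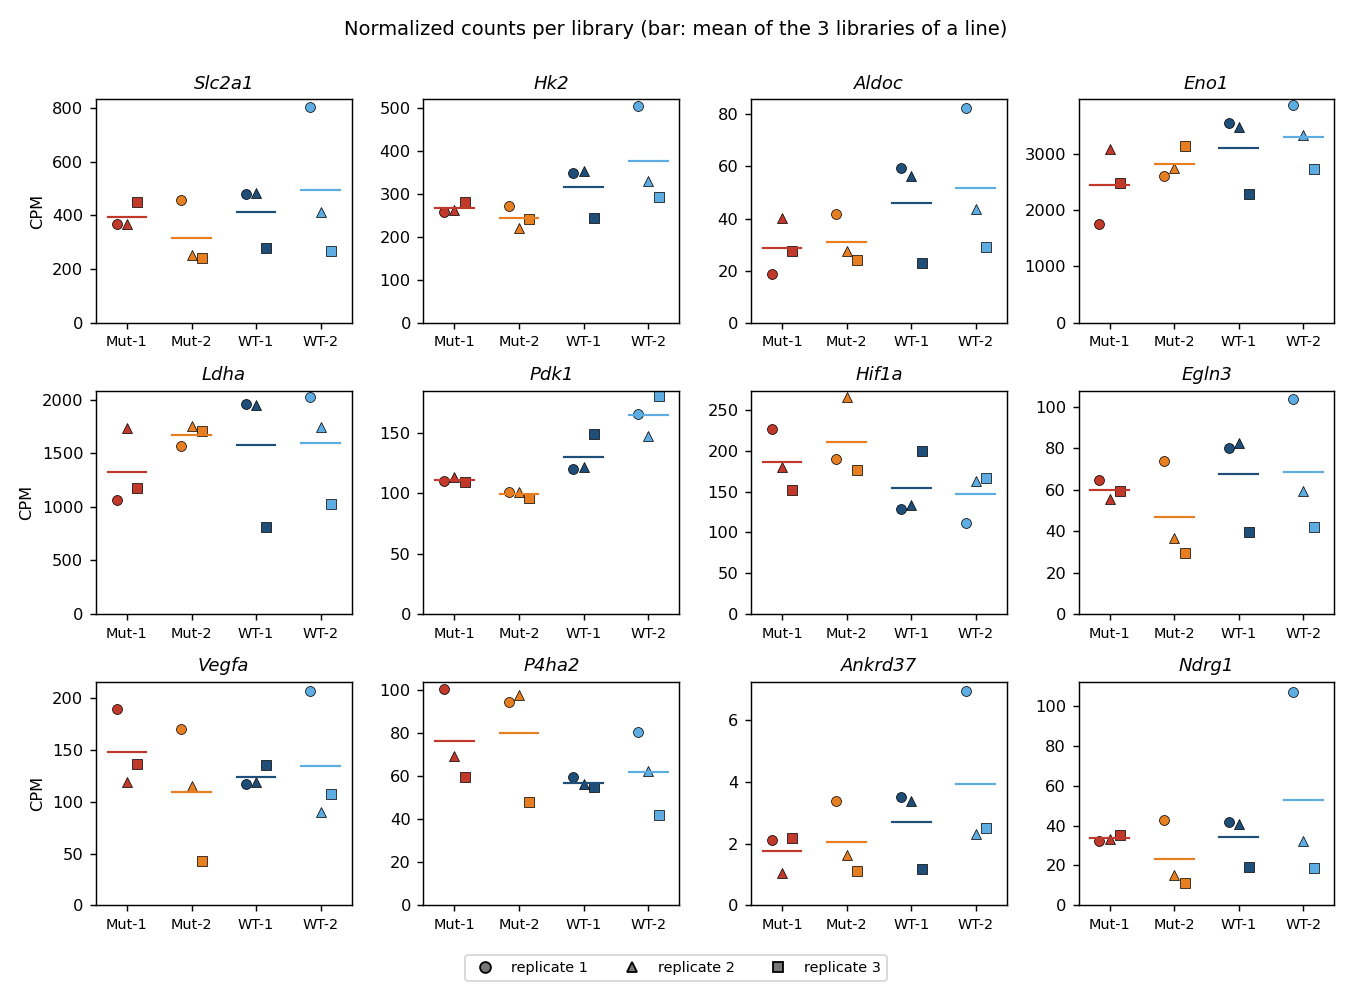
CPM of 12 genes in each library, mutant lines left of wild-type lines, 1 panel per gene with its own axis, points for libraries (shape by replicate number) and bars for the mean of the 3 libraries of a line. For Pdk1 all mutant points, at most 114 CPM, lie below all wild-type points, at least 120.3 CPM, while for the other genes the points of the genotypes overlap.

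The promoters of Pdk1, Aldoc and Ankrd37 are shown because Pdk1 had no overlap between genotypes and the other two had the most negative fold changes of the 38. Each window runs from 250 bases before to 50 bases after the RefSeq gene start (GRCm38.p6), 5′ to 3′ on the gene's strand. Capitals mark the HIF core motifs ACGTG and GCGTG, searched on both strands, so that CACGT and CACGC are the same cores read from the other strand.
Pdk1 (chr2:71872974-71873273, plus strand): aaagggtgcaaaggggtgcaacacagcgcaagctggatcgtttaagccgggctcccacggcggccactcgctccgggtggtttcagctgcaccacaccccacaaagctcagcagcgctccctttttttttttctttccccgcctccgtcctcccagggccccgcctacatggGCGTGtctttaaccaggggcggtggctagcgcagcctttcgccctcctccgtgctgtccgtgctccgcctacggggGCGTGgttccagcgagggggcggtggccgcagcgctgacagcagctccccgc
Aldoc (chr11:78322823-78323122, plus strand): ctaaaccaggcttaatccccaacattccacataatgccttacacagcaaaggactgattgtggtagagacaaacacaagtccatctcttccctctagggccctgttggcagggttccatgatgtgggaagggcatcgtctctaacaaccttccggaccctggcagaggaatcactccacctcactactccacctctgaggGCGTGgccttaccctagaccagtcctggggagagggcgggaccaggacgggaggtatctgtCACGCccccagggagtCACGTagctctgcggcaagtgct
Ankrd37 (chr8:45999801-46000100, minus strand): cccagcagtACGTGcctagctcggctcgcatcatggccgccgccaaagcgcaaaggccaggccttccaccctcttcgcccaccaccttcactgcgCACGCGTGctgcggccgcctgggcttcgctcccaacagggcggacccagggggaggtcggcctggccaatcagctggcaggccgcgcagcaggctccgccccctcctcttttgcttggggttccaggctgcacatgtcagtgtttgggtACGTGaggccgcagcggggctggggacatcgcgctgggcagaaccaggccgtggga
Pdk1 holds 2 cores, at positions -78 and -2 from the start, Aldoc holds 3, and Ankrd37 holds 4, of which CACGC and GCGTG overlap. The RefSeq start used for Ankrd37 lies 5857 bases from the GENCODE start of that gene. A window was found for 35 of the 38 genes, all except Bnip3l, Ndrg1 and Slc2a3. Of the 35, 27 (77.1%) held at least 1 core, against 61.7% of 11197 windows of tested genes. At least 2 cores were found in 21 (60%), against 33.1%. Cores that overlap, also on opposite strands, were each counted, so 2 cores can lie in 1 stretch. A match of these letters is a description of the sequence and not a binding site.

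The lines were then compared in pairs within 1 edgeR fit of the 12 libraries (16533 genes tested), where p-values measure only the spread between libraries of a line. The line numbers are names and do not tie a mutant line to a wild-type line. In Mut-1 against WT-1, none of the 38 genes was called (0.296% of all genes called higher and 0.0302% lower). At an unadjusted p under 0.05, 1 was higher and 0 lower (all genes, 6.47% and 4.81%). Log2 fold changes were below 0 for 21 of the 38, against 46.9% of all genes, with a median of -0.037. That median was 0.045 without WT-1 replicate 1 (15 of the 38 below 0), 0.049 without WT-1 replicate 2 (17 below 0) and -0.17 without WT-1 replicate 3 (26 below 0). In Mut-2 against WT-2, 1 of the 38 was called, Pdk1, which was lower in Mut-2 (0.194% of all genes called lower and 0.732% higher). There 2 were higher and 3 lower at an unadjusted p under 0.05 (all genes, 9.67% and 5.45%). In that pair 30 of the 38 were below 0, against 50.1% of all genes, with a median of -0.22. Without WT-2 replicate 1 this median was 0.0033 with 18 of the 38 below 0, and without the 3 feeder-rich libraries it was -0.63 with 29 below 0. Over all 12 ways of leaving out 1 library it ranged over -0.39 to 0.0033. The number lower at an unadjusted p under 0.05 ranged over 1 to 11. That number was 1 without WT-2 replicate 1 (2.63%, against 4.29% of all genes), 10 without WT-2 replicate 3 (26.3%, against 4.90%) and 11 without Mut-2 replicate 1 (28.9%, against 8.63%). The 30 feeder markers had medians of 0.44 in Mut-1 against WT-1 and 0.72 in Mut-2 against WT-2, and their part in these values was not tested.

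Pdk1 had a log2 fold change of -0.73 (SE 0.12, edgeR adjusted p = 0.0156) in Mut-2 against WT-2. Without WT-2 replicate 1 it was at -0.74 with an adjusted p of 0.0576, and without WT-2 replicate 3 at -0.66 with an adjusted p of 0.0755. Without Mut-2 replicate 2 it was at -0.76 (adjusted p = 0.103), and without the 3 feeder-rich libraries at -0.79 (adjusted p = 0.219), where the lone Mut-2 library is assumed to vary like those of the other lines. Over all 12 ways of leaving out 1 library the log2 fold change ranged from -0.80 to -0.66. In Mut-1 against WT-1, Pdk1 was at -0.23 (SE 0.12, edgeR adjusted p = 0.475).

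The other large values in Mut-2 against WT-2 did not pass. Ndrg1 was at -1.19 (SE 0.58, edgeR adjusted p = 0.356), and at -0.16 without WT-2 replicate 1. Hk2 was at -0.62 (SE 0.20, edgeR adjusted p = 0.149), and at -0.37 without that library. Pfkp, the platelet-type phosphofructokinase, was at -0.55 (SE 0.20, edgeR adjusted p = 0.206), and at -0.38 without it. Aldoc was at -0.68 (SE 0.41, edgeR adjusted p = 0.528) in Mut-1 against WT-1 and at -0.74 (SE 0.41, edgeR adjusted p = 0.438) in Mut-2 against WT-2, or -0.25 without that library.

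**Figure D5:**
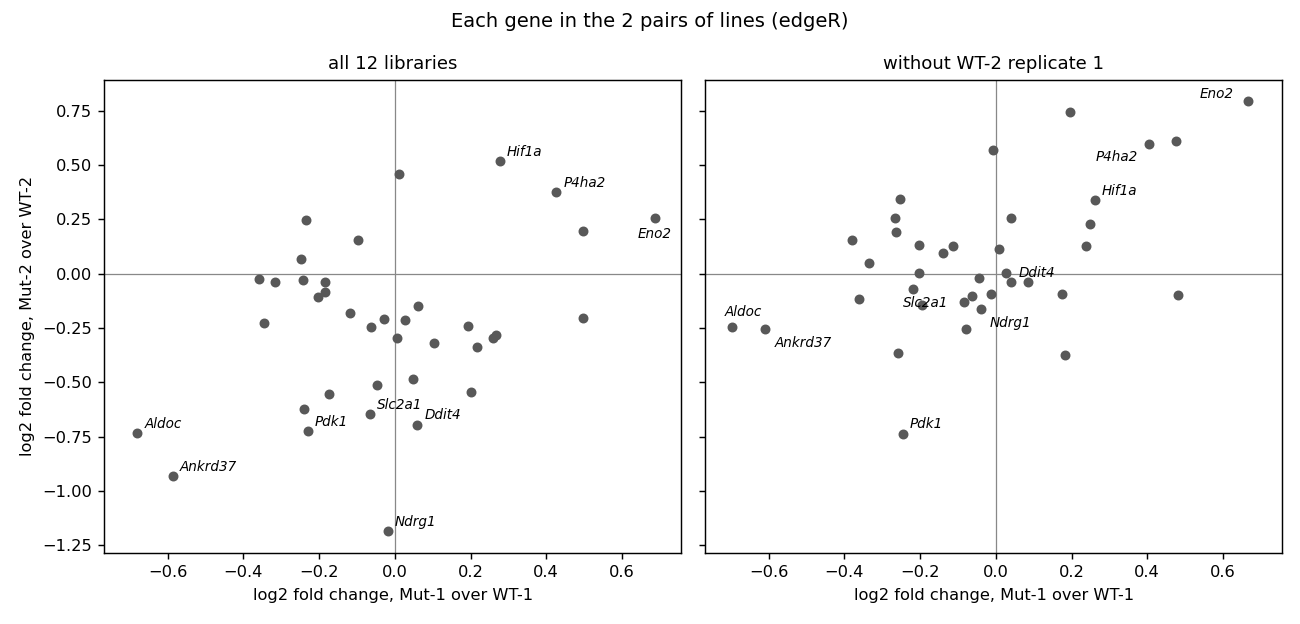
Log2 fold changes of the 38 genes in Mut-1 over WT-1 (horizontal) and Mut-2 over WT-2 (vertical), from edgeR with all 12 libraries (left panel) and without WT-2 replicate 1 (right panel), 1 point per gene. The vertical median is -0.22 with all libraries and 0.0033 without that library, where Ndrg1 lies at -0.16 and Pdk1 at -0.74.

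Lines of the same genotype were compared in the same fit. In WT-2 against WT-1, none of the 38 was called (0.0181% higher and 0.0% lower), and 2 were higher and 0 lower at an unadjusted p under 0.05 (all genes, 4.17% and 3.44%). There 8 of the 38 were below 0, against 48.2% of all genes, and the median was 0.17. Omitting WT-2 replicate 1 gave a median of -0.13, with 29 of the 38 below 0, against 51.7% of all genes, and over the other libraries left out in turn the median ranged over 0.080 to 0.35. Pdk1 was at 0.34 (SE 0.12, edgeR adjusted p = 0.542) in that comparison. Egln1 was at 0.29 and Ankrd37 at 0.55, or -0.011 and -0.16 without WT-2 replicate 1. Both lie on chromosome 8, where 606 genes had a median of 0.17, against -0.0090 for 10102 genes on the other autosomes. The part of that chromosome in their values was not tested. In Mut-2 against Mut-1, none was called (0.0484% higher and 0.212% lower), and 1 was higher and 1 lower at an unadjusted p under 0.05 (all genes, 3.24% and 3.65%). Of the 38, 19 were below 0, against 47.1% of all genes, and the median was -0.0041. That median was -0.15 without Mut-2 replicate 1 (25 of the 38 below 0), 0.10 without Mut-2 replicate 3 (14 below 0) and -0.35 without the 3 feeder-rich libraries (27 below 0). With the replicate number as a block, 6 in place of 3 of all genes were called in WT-2 against WT-1 and 68 in place of 43 in Mut-2 against Mut-1, and again none of the 38.

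A test of the difference between the pairs, (Mut-2 minus WT-2) minus (Mut-1 minus WT-1), called none of the 38 (0.0242% higher and 0.0484% lower). At an unadjusted p under 0.05, 0 were higher and 3 lower (all genes, 3.93% and 4.15%). The difference was below 0 for 26 of the 38, against 50.1% of all genes, with a median of -0.27. That median was 0.12 without WT-2 replicate 1, with 15 of the 38 below 0. Over the other libraries left out in turn it ranged over -0.44 to -0.097. For Pdk1 it was -0.50 (SE 0.16, edgeR adjusted p = 0.514), so the pairs were not shown to differ in it.

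Neighbouring pathways were followed with further gene lists on line totals, and none of their genes was called in mutant against wild-type lines. Of 14 genes of the HIF machinery, 4 were above 0 and 10 below, with a median of -0.031. Cited2, which competes with HIF for its coactivators, averaged 98.4 ± 10.8 CPM in mutant lines and 65.8 ± 9.48 CPM in wild-type lines, a log2 fold change of 0.58 (SE 0.14, edgeR adjusted p = 0.209). Hif3a, a further HIF alpha subunit, averaged 4.74 ± 0.665 CPM in mutant lines and 9.34 ± 3.37 CPM in wild-type lines, a log2 fold change of -0.98 (SE 0.27, edgeR adjusted p = 0.238). The libraries of the genotypes overlapped for both, and without WT-2 replicate 1 Hif3a was at -0.61. Rbx1, a subunit of the ligase that ubiquitinates HIF, was at -0.19 and Arnt2, a HIF partner, at 0.26, or 0.15 without that library.

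Of 23 tested paralogues and side branches of glycolysis, 9 were above 0 and 14 below (median -0.076). Ldhb, the other main lactate dehydrogenase subunit, averaged 140.3 ± 15.9 CPM in mutant lines and 220.4 ± 61.0 CPM in wild-type lines, a log2 fold change of -0.65 (SE 0.18, edgeR adjusted p = 0.242). Of the monocarboxylate transporters, Slc16a1 was at -0.22 and Slc16a7, at under 1 CPM, at 0.80, and Pgm1 was at -0.17 (-0.091 without WT-2 replicate 1). Of 13 genes for pyruvate entry into mitochondria, 2 were above 0 and 11 below (median -0.086). Those above were Pdhb, a subunit of pyruvate dehydrogenase on chromosome 14, at 0.36, and the pyruvate carrier subunit Mpc2 at 0.29. Pyruvate carboxylase (Pcx) was at -0.47 and the phosphatase Pdp2 at -0.30.

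Of 8 pentose phosphate pathway genes, 3 were above 0 and 5 below (median -0.052). Rpe, ribulose phosphate epimerase, ranged over 97.4 to 114 CPM in mutant libraries and 71.3 to 91.6 CPM in wild-type libraries, with no overlap and a log2 fold change of 0.37 (SE 0.11, edgeR adjusted p = 0.246). Prps1, which makes phosphoribosyl pyrophosphate, ranged over 83.9 to 104 CPM in mutant libraries and 106 to 131 CPM in wild-type libraries, again with no overlap, and was at -0.33 (SE 0.10, edgeR adjusted p = 0.257). Among all genes, 1.41% had all mutant libraries above all wild-type libraries and 0.732% had them below. The lactonase Pgls was at -0.13 and the dehydrogenase Pgd at -0.14.

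Of 34 tested further HIF targets, 21 were above 0 and 13 below, with a median of 0.12. The collagen cross-linking enzymes Lox and Loxl2 were at 0.54 and 0.48, and the VEGF receptor gene Flt1 at 0.45. Lox is also among the 30 feeder markers, and Loxl2 lies on chromosome 14. On line totals without the 3 feeder-rich libraries the values were -0.032 for Lox, -0.014 for Loxl2 and 0.079 for Flt1. Without WT-2 replicate 1, 26 of these 34 targets were above 0 (median 0.23), as were 11 of the 23 paralogues and side branches (median -0.017) and 4 of the 13 genes for pyruvate entry (median -0.062).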

How the data were processed

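The authors deposited raw counts (whole numbers for each gene and library, 12 libraries in all). Per the submitters' processing notes, the tools included Bowtie2 2.2.3, HISAT2 2.1.0 and HTSeq 0.6.0, with bcl2fastq, on build GRCm38. The sources used here do not say which tool did what, which annotation served or whether strand was used, so overlapping genes and near-identical copies may share reads.

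The 38 genes and all gene lists were chosen with earlier results of these data known. TMM-scaled CPM were computed from the counts. Genotype was tested on counts summed per line, and pairs of lines in 1 fit of the 12 libraries, with edgeR 4.0.16 in R 4.3.3 (quasi-likelihood test, filterByExpr, Benjamini-Hochberg adjustment, threshold 0.05). DESeq2 1.42.0, limma 3.58.1, other scalings, no filter, libraries or lines left out and replicate blocks were the alternatives. The edgeR, DESeq2 and limma fits were run on simulated data for genotype, and edgeR also for both mutant against wild-type pairs. The simulated libraries held the spread within lines but no difference between lines of 1 genotype. They therefore cannot show how the genotype fits handle differences between lines. Positions came from GENCODE M21, which matched 28056 of 31641 symbols, and promoters from RefSeq (GRCm38.p6).

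Genes given library by library had no overlap between genotypes, or were called in a pair of lines and past 1 in absolute log2 fold change (0 genes), or had 1 of the 8 smallest p-values of the 38 for genotype, or were Hif1a, Hk2, Ldha, Pdk1, Slc2a1 or Vegfa. Ndrg1 was added later. Of each further list, up to 4 genes with the smallest p were named, except 1 that is not reported here. Totals of 14766477 to 17891894 counts limit the precision of low genes such as Ankrd37. Deviations from line means of same-numbered libraries were correlated between lines. Over replicates 1, 2 and 3 the values were 0.429, 0.176 and 0.235 between Mut-2 and Mut-1. They were 0.114, 0.239 and 0.485 between WT-2 and WT-1, and 0.59, 0.299 and 0.0977 between Mut-2 and WT-2. Mut-1 gave 0.352, 0.311 and 0.18 with WT-2 and -0.099, 0.155 and 0.0964 with WT-1. Mut-2 gave -0.0582, -0.144 and -0.192 with WT-1. Whether replicate numbers pair libraries is thus not settled, and the replicate block was an alternative only.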

Additional observations from a re-analysis of the deposited data

Results flagged for a closer look

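In 9 of 78 groups of 6 libraries (each of the 38 genes and Tinf2, in mutant and in wild-type libraries), 1 library lay apart from the other 5 by Dixon's criterion at the 95% level. Chance alone gives such a library in about 1 in 20 independent groups. These groups share the same libraries and are not independent, so that rate gives no expected count for the 78. In 8 of the 9, it was WT-2 replicate 1, as the highest of the wild-type libraries. That library had 1828 CPM for Gpi1, 73.2 CPM for Eno2, 68.9 CPM for Pfkfb3 and 99.5 CPM for Bnip3. It also had 53.7 CPM for Adm, 229 CPM for P4ha1, 362 CPM for Ddit4 and 107 CPM for Ndrg1. Among the mutant libraries, Mut-2 replicate 1 lay apart for Pfkfb4, with 8.07 CPM.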

How the results depend on the processing

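For genotype, none of the 38 genes was called with other scalings, with any 1 library or line left out (0 to 0) or with the 3 feeder-rich libraries removed. The count was 1 with DESeq2, 1 with limma-voom on 12 libraries, 1 with no filter (77 of all genes) and 1 with a replicate block by line number. That block called Aldoc (adjusted p = 0.0399; all genes, 0.72% higher and 0.144% lower), but the line numbers are only names. Genes with no overlap between genotypes, 1 with all libraries, numbered 1 to 2 with a library left out (2 without WT-1 replicate 3, where 3.76% of all genes had none; 2.32% to 3.82% over these 12) and 1 to 3 with a line left out (2 without Mut-1, 2 without Mut-2 and 3 without WT-1; all genes, 8.76%, 7.34% and 7.58%). With no filter, 2 were called in Mut-1 against WT-1, 10 in Mut-2 against WT-2, 1 in WT-2 against WT-1 and 1 for the difference between the pairs (all genes, 543, 966, 201 and 302). Shares of all genes are not given for that fit. In Mut-2 against WT-2 its SE for Ndrg1 was 0.18, against 0.58 with the filter, at -1.19 in both. For Pdk1 the SE was 0.16, against 0.12. The calls with and without the filter thus rest on different estimates of the spread. With the filter, the count in Mut-2 against WT-2 was 0 with a log2 fold change of at least 1 also required, and 0 to 1 with a library left out. Libraries of different lines share only a replicate number. Those that correlated best with their own number were 5 of 6 between Mut-1 and Mut-2 and 4 of 6 between WT-1 and WT-2. They were 6 of 6 between Mut-1 and WT-2 and 0 of 6 between Mut-2 and WT-1. Between Mut-1 and WT-1 and between Mut-2 and WT-2, they were 2 of 6 and 4 of 6. There the replicate block gave 100 in place of 54 and 328 in place of 153 calls over all genes, with 0 and 1 of the 38.

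The genotype median over the 38 ranged over -0.23 to -0.018 with a library left out. Of 1117 alternatives for single genes, 1027 kept direction and side of the threshold and 58 changed sign, for causes not tested. With the replicate block, Slc2a1 was at 0.016 in Mut-1 against WT-1, and Egln3 at -0.022 and Vegfa at -0.0016 in WT-2 against WT-1. Without the feeder-rich libraries, Mut-2 against Mut-1 gave -0.51 for Aldoc, -0.55 for Ankrd37 and -0.44 for P4ha2, and Mut-2 against WT-2 gave -0.37 for P4ha2. For genotype, Ldha was at 0.069 without Mut-1, 0.013 in limma with feeder share and 0.018 in limma without the feeder-rich libraries. P4ha2 was at -0.018, -0.0081 and, on line totals without those libraries, -0.080. Vegfa was at -0.19 without Mut-1, -0.036 without WT-1, -0.10 in limma, -0.42 with feeder share, -0.51 in limma and -0.59 on line totals without those libraries, -0.0067 with no filter and -0.0022 with the block by line number.

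With a library left out, genotype values ranged over -0.27 to 0.0016 for Ldha and -0.18 to 0.24 for Vegfa, and with a line left out over -0.30 to 0.069 and -0.19 to 0.18. In Mut-1 against WT-1, Slc2a1 ranged over -0.29 to 0.061. In Mut-2 against WT-2, Ldha ranged over -0.17 to 0.26 and Vegfa over -0.76 to 0.13. In Mut-2 against Mut-1, the ranges were -0.16 to 0.41 for Aldoc, -0.37 to 0.49 for Ankrd37, -0.035 to 0.33 for Hif1a and -0.12 to 0.33 for P4ha2. In WT-2 against WT-1 they were -0.35 to 0.45 for Aldoc, -0.16 to 0.82 for Ankrd37, -0.42 to 0.28 for Egln3, -0.086 to 0.22 for Eno1, -0.18 to 0.17 for Hif1a, -0.023 to 0.41 for Hk2, -0.29 to 0.26 for Ldha, -0.12 to 0.33 for P4ha2, -0.28 to 0.56 for Slc2a1 and -0.33 to 0.35 for Vegfa.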

Other observations

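Of the 4 pyruvate dehydrogenase kinase genes, Pdk1 and Pdk3 had higher levels than Pdk2 and Pdk4. In CPM per kilobase of exon (mean ± SD over 2 lines), Pdk3 was at 16.3 ± 0.0964 in mutant lines and 17.5 ± 3.19 in wild-type lines, and Pdk1 at 13.5 ± 0.898 in mutant lines and 19.0 ± 2.97 in wild-type lines. Pdk2 was at 2.40 ± 0.472 in mutant lines and 2.46 ± 0.188 in wild-type lines, and Pdk4 at 2.80 ± 0.816 in mutant lines and 2.85 ± 0.880 in wild-type lines. Egln2, a HIF prolyl hydroxylase outside the 38, was at 19.9 ± 0.907 in mutant lines and 18.5 ± 1.55 in wild-type lines. Of the HIF alpha subunits, Hif1a averaged 29.7 CPM per kilobase over the 4 lines, Epas1 12.9 and Hif3a 1.05.

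Near-identical copies of some of the 38 genes were listed separately. Eno1b averaged 145 CPM over the libraries, Pgam1-ps2 27.1 CPM, Pgk1-rs7 13.5 CPM and Ldha-ps2 1.28 CPM. How reads were divided between copies and parent genes is not given in the sources used here.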
